A study of Mus musculus with 2 samples.

Results

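The genes considered are 8 genes of antigen presentation whose promoters are the classic sites of the RFX5 complex: Ciita, H2-Ab1, H2-Aa, H2-Eb1, H2-DMa, H2-DMb1, Cd74 and B2m. They were listed by name, without a measured value as a criterion, from the 22367 protein-coding genes of the GENCODE M1 annotation of the mouse genome NCBIM37 (mm9). The choice was made with earlier results of these data known. A peak was counted for a gene when its summit, the position of highest signal, lay in the gene or within 20 kb of it. In all, 8 of the 23308 peaks of the series were counted for these genes, and 5 of the 8 genes had none.

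Min6b1 is a mouse line that serves as a model of the insulin-secreting β cell. In one sample the cells had been transfected with a pCMV-Tag2A-3HA-Rfx6 plasmid, so that Rfx6 carried an HA tag and was made from the viral promoter of the plasmid, and DNA bound to the tagged protein was precipitated with the anti-HA antibody 12CA5 and sequenced (ChIP-seq). The control is labelled as Min6b1 cells and was treated with the same antibody, although the growth protocol given for it also describes the transfection. There was 1 library per condition, so no value has a replicate error, and no expression values were analysed with which the labelled cell type could be checked. The control was used by the authors when they called peaks with MACS, and in no other way here.

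MHC class II molecules are pairs of an α and a β chain that display peptides to CD4+ T cells. Their genes are switched on through an X-box and a Y-box that lie close together before the start, where the RFX complex of Rfx5, Rfxap and Rfxank occupies the X-box and NF-Y the Y-box. Ciita, a coactivator that does not itself contact DNA, joins them there and is the limiting step, both in antigen-presenting cells and in other cells after interferon gamma. Rfx6 is another member of the RFX family, known for its role in islet cells, and shares the DNA-binding domain that recognises X-boxes.

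The promoters of H2-Aa, H2-Eb1 and B2m are shown first, with X-boxes and Y-boxes marked where the search found them. Each line is the strand of the gene, 5′ to 3′, and holds the 130 bases before the most upstream annotated start. Capitals mark a short X-box (AGCAAC or AGTAAC or GGCAAC or GGTAAC), a class II X-box (CCTNGNAAC or CCTNGNGAC or CCCNGNAAC or CCCNGNGAC) or a Y-box (ATTGG), searched on both strands; short X-boxes and class II X-boxes can overlap each other. The stretches lie at chr17:34424773-34424902 on the minus strand, chr17:34442698-34442827 on the plus strand and chr2:121973292-121973421 on the plus strand of NCBIM37.
H2-Aa: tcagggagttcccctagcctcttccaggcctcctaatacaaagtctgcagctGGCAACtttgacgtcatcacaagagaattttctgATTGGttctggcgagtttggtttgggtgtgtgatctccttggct
H2-Eb1: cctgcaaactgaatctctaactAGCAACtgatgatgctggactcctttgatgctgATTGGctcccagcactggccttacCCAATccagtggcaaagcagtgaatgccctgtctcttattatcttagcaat
B2m: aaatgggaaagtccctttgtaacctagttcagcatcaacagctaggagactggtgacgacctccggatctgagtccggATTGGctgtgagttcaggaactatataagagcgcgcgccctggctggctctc
H2-Aa, the α chain of the I-A molecule, has its short X-box 78 bp before the start of H2-Aa-001, and the Y-box begins 34 bp further on. H2-Eb1, the β chain of I-E, has the same order with a short X-box 108 bp before the start and a spacing of 33 bp, and a further Y-box on the opposite strand. B2m, the light chain of class I molecules, has a Y-box 52 bp before its start and none of these X-boxes in the 300 bp before to 50 bp after it. RefSeq promoters (GRCm38.p6) were at hand for 5 of the 8 genes and not for Ciita, H2-Ab1 and Cd74. The RefSeq starts of H2-Aa, H2-Eb1 and B2m, placed by exact match of sequence, lie at 34424768, 34442812 and 121973423 of the same chromosomes.

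None of these promoters had a peak. H2-Ab1, H2-Aa and H2-Eb1, which encode the classical class II chains, lie side by side on chromosome 17, and no summit was called within 20 kb of any of them. H2-Ab1 (ENSMUSG00000073421.4, 34400154 to 34406363, plus strand) encodes the β chain of I-A, and its nearest summit was 23.4 kb away. H2-Aa (ENSMUSG00000036594.7, 34406276 to 34424772, minus strand) was 29.6 kb from a summit, and its nearest start was 48.0 kb from it. H2-Eb1 (ENSMUSG00000060586.8, 34442828 to 34453144, plus strand) was 66.1 kb from a summit. For all 3 genes this was 1 and the same summit, at 34376724, of a peak of 44 reads and a fold enrichment of 5.65. It lies in H2-Ob, the β chain of the peptide-loading regulator H2-O, at 257 bp from an annotated start of that gene. Fold enrichment is a ratio to the background that MACS expects from the control and the surrounding sequence. It does not follow from the number of reads in the peak, and the 2 are read as separate measures here. On this chromosome, peaks of 39 and 44 reads had the same fold of 5.65, and peaks of 110 reads had folds of 4.94 and 11.3. The median peak of the series held 73 reads (lowest 24, highest 3489) and had a fold of 8.54 (lowest 2.43, highest 95.8), so the peak at H2-Ob was below both medians.

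On the other side of these genes the next summit was at 34723922 in Notch4, with 117 reads and a fold of 16.95. The stretch without a summit thus measured 347 kb and held 11 protein-coding genes in full, among them H2-Eb2, Btnl2 and other butyrophilin-like genes next to the 3 class II chains. A stretch of this length is not rare. Of the 23288 gaps between neighbouring summits 5.68% were at least as long, and together they made up 56.8% of the bases spanned. The 162 kb from H2-Oa to H2-Ob, which hold H2-DMa, H2-DMb1 and the class I genes Tap1, Tap2, Psmb8 and Psmb9, carried 10 summits or 6.19 per 100 kb, against 0.911 per 100 kb from the first to the last summit of every chromosome. These 10 peaks held 40 to 112 reads. The empty stretch is bounded by summits by definition, so a contrast with its neighbour is built in, and gene density was not compared. The map of the class II region shows both stretches.

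**Figure D1:**
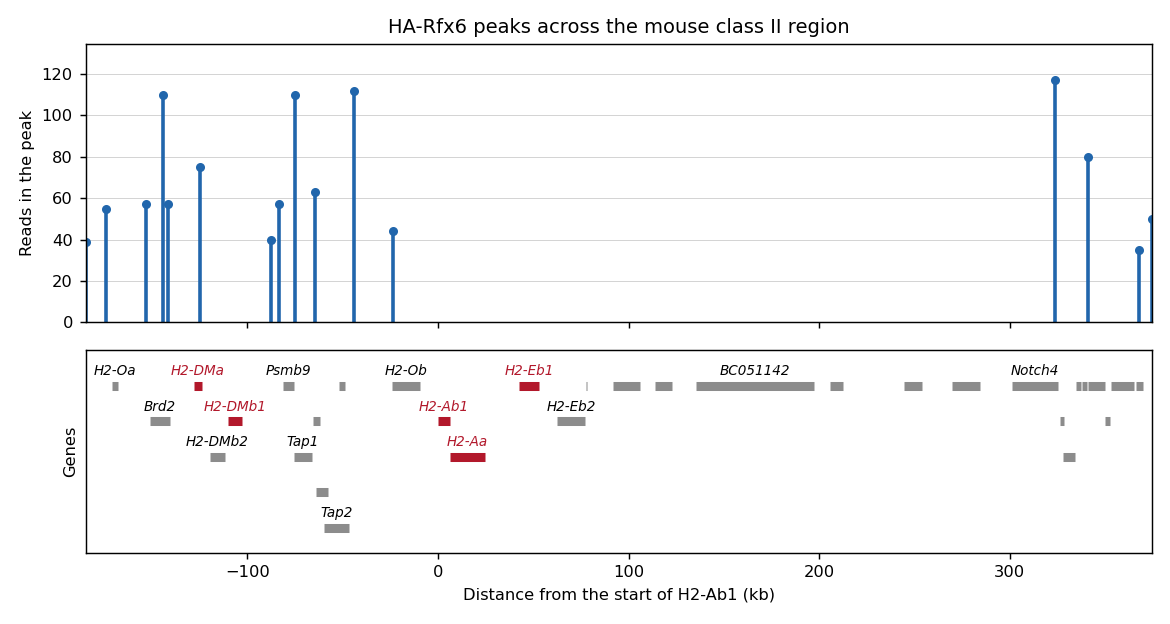
Peaks of the 3HA-Rfx6 library around the class II genes. The upper panel gives the reads of each peak at its summit and the lower panel the protein-coding genes (members in red), both against the distance from the start of H2-Ab1 in kb. Peaks of 40 to 112 reads lie from H2-Oa to H2-Ob, and no peak lies over the 347 kb that hold H2-Ab1, H2-Aa and H2-Eb1.

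Cd74 and B2m, which serve the class II and class I pathways from other chromosomes, also had no summit within 20 kb. Cd74 (ENSMUSG00000024610.8, chromosome 18, 60963502 to 60972300, plus strand) encodes the invariant chain that guides class II molecules and fills their groove. Its nearest summit was 42.4 kb before the start, in a peak of 133 reads and a fold of 20.66. On the other side the distance was 67.4 kb, to a peak of 71 reads and a fold of 7.77. B2m (ENSMUSG00000060802.8, chromosome 2, 121973422 to 121978819, plus strand) was the most distant of the 8 genes. Its nearest summit was 133 kb past its end, in a peak of 48 reads and a fold of 4.24, and the summit on the side of its start was 281 kb away. Of all protein-coding genes, 20.3% were at least as far from a summit as B2m, 28.3% as far as H2-Eb1, 34.4% as far as Cd74, 39.4% as far as H2-Aa and 42.7% as far as H2-Ab1.

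Summits were thus counted for 3 of the 8 genes, Ciita, H2-DMa and H2-DMb1. That is 37.5% (95% Wilson interval 13.7 to 69.4%), beside 55.2% of all protein-coding genes. Inside the gene itself a summit was found for 2 of 8, Ciita and H2-DMa, or 25.0% (7.15 to 59.1%), beside 31.3% of all genes. Within 1 kb of an annotated start there was a summit for 1 of 8, Ciita, or 12.5% (2.24 to 47.1%), beside 22.6%. This count rests on Ciita-206, the transcript of a separate short entry of Ciita. The nearest start of the longer entry, at 10488392, was 1515 bp from the summit, and with that entry alone the count was 0 of 8. Each interval contains the share of all genes. The intervals cover counting error only and treat the 8 genes as independent, which they are not. H2-Ab1, H2-Aa and H2-Eb1 lie in 1 stretch without a summit, and H2-DMa and H2-DMb1 share a peak. Ciita, at 47.4 kb, is the longest of the 8. Of the 7 shorter members (3.92 to 18.5 kb), 2 had a summit within 20 kb, beside 56.6% of the 7242 genes within that range of length. The plot of distances to the nearest summit shows where each gene falls among all genes.

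**Figure D2:**
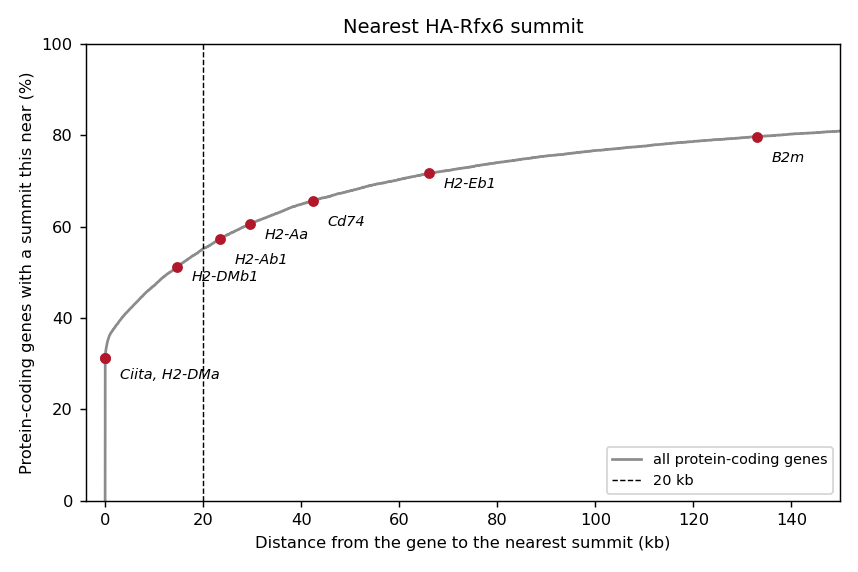
Cumulative share of protein-coding genes, in percent, against the distance from the gene to its nearest summit in kb (grey line), with the 8 members as red points and the 20 kb limit dashed. Ciita and H2-DMa hold a summit and H2-DMb1 lies inside the limit, whereas H2-Ab1, H2-Aa, Cd74, H2-Eb1 and B2m follow from 23.4 to 133 kb.

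Ciita held the strongest peaks of the group. It has 3 summits, all in the gene. Of protein-coding genes of any length, 18.9% have 3 or more in the gene or within 20 kb, and H2-DMa and H2-DMb1 also have 3 by that count. The annotation gives Ciita 2 entries on the plus strand of chromosome 16 (ENSMUSG00000022504.8 and ENSMUSG00000075404.4), which together span 10480237 to 10527657 and have 5 distinct starts. Several promoters are known for this gene, and different cell types use different ones. The first peak (10489212 to 10491194, summit 10489907) held 228 reads (exact Poisson interval 199 to 260) and had a fold of 34.84, and 1.89% of all peaks had at least as high a fold. Its summit was 31 bp after the start of Ciita-206, the most downstream of the starts, in the untranslated first exon of that short transcript and in intron 1 of the 5 other transcripts. It was 9.67 kb from the most upstream start.

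The second peak of Ciita (10497826 to 10499185, summit 10498497) held 136 reads (114 to 161) and had a fold of 20.01. It lies in intron 1 of Ciita-201 to Ciita-205, 8.62 kb past the start of Ciita-206. The third peak (10510412 to 10512852, summit 10512051) had the most reads of the group, 235 (206 to 267), at a fold of 19.07. Its summit falls on coding exon 10 of Ciita-201, Ciita-202 and Ciita-204 and in introns of Ciita-203 and Ciita-205, 31.8 kb from the most upstream start. By reads, 5.28% of all peaks were as high as the third and 5.72% as high as the first, and the intervals of these peaks overlap. The second was lower by reads, with 18.5% of peaks as high, and its interval does not reach theirs. The peaks measured 1983, 1360 and 2441 bp in this order along the gene, and reads were not corrected for length. By fold the second, at 20.01, was above the third, at 19.07. The map of Ciita shows 3 peaks inside the gene and 1 of 159 reads just before the start of the neighbouring gene Fam18a, 32.7 kb before Ciita.

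**Figure D3:**
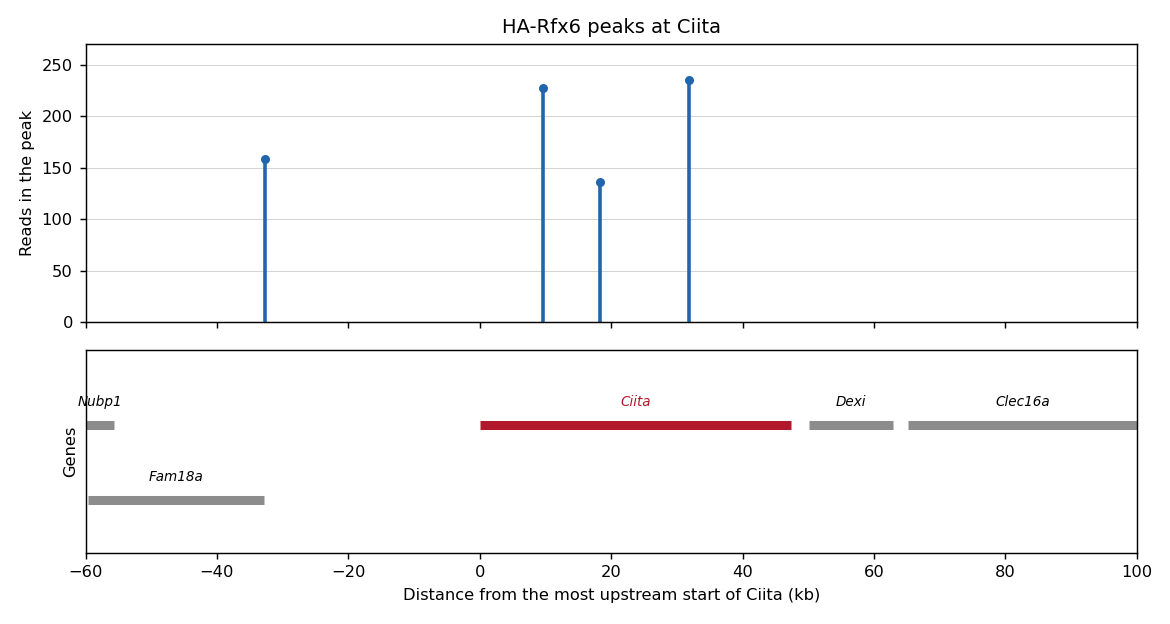
Reads of each peak at its summit (upper panel) and protein-coding genes (lower panel, Ciita in red) against the distance from the most upstream start of Ciita in kb. The 3 peaks in Ciita hold 228, 136 and 235 reads from left to right, and no peak lies over Dexi.

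The sequences under the first and second Ciita peaks are given because no X-box of the strict kind was near their summits. The strict X-box is a pair of inverted arms with 0 to 3 bases between them, and the relaxed X-box a looser form of the same with 1 to 3 bases between. Capitals mark the relaxed X-box, and both stretches are on the plus strand of NCBIM37, at chr16:10489844-10489873 and chr16:10498447-10498557.
Ciita upstream site: gtgagataGCTGCCAGGAGACtgcccgccc
Ciita intron 1: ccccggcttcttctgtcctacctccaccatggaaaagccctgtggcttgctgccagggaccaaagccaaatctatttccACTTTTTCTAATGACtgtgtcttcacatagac
The first match was 43 bp from its summit and 24 bp before the start of Ciita-206, and the second was 29 bp from its summit. The third peak had no relaxed match within 100 bp of the summit. Such a match was found within 100 bp of 46.0% of all summits and in 23.0% of windows of the same size placed 1 kb to the right. None of the 3 Ciita summits had a strict, class II or short X-box within 100 bp.

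H2-DMa and H2-DMb1 encode the chains of H2-DM, which exchanges peptides on class II molecules in the endosome. H2-DMa (ENSMUSG00000037649.9, chromosome 17, 34272127 to 34276046, plus strand) had 3 summits within 20 kb, of which 1 was in the gene. That peak (34274670 to 34276051, summit 34275414) held 75 reads (59 to 94) and had a fold of 8.0, near the medians of all peaks. Its summit lies on coding exon 4 of 5, 3.29 kb after the start. The other two lie before H2-DMa in untranslated exons of Brd2, a bromodomain gene read in several transcripts. One (summit 34255713) held 110 reads (90.4 to 133) at a fold of 4.94 and was 16.4 kb from the start of H2-DMa but 279 bp from a start of Brd2. The next (summit 34258312) held 57 reads (43.2 to 73.9) at a fold of 6.12, 13.8 kb from the start of H2-DMa and 380 bp from a start of Brd2. RefSeq also places starts of H2-DMa further upstream, at 34259777 and 34262463, and the first of these was 1.47 kb from the summit at 34258312.

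H2-DMb1 (ENSMUSG00000079547.2, chromosome 17, 34290017 to 34297168, plus strand) had no summit in the gene. Of its 3 summits within 20 kb, the nearest was the one in H2-DMa, 14.6 kb before its start, which is counted for both genes. Past its end were a pair of intergenic peaks. The first (34312284 to 34313159, summit 34312656) was 15.5 kb past the end and held 40 reads (28.6 to 54.5) at a fold of 6.29, a read number that 93.7% of all peaks reached. The second (34316051 to 34317158, summit 34316675) was 19.5 kb past the end and held 57 reads (43.2 to 73.9) at a fold of 11.06. Both have their nearest start in Psmb9, an immunoproteasome subunit, at 8.02 and 4.0 kb. No summit counted for H2-DMb1 therefore had a start of H2-DMb1 as the nearest one. H2-DMb1 has a close copy beside it, H2-DMb2, and the handling of reads with more than 1 match is not given in the sources used here. The plot of reads and fold places these 8 peaks among all peaks.

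**Figure D4:**
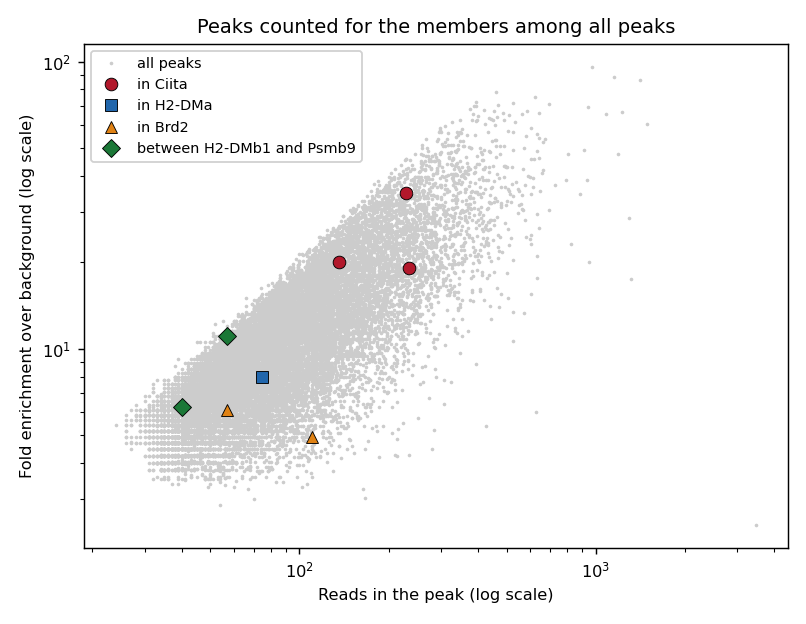
Fold enrichment over background against reads in the peak, both on log scales, for all 23308 peaks (grey) and for the 8 peaks counted for the members (coloured by the gene that holds the summit). The Ciita peaks lie at folds of 19.07 to 34.84, above the other 5, which lie between 4.94 and 11.06.

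The weakest of the 8 peaks by reads was the only one with a strict X-box within 100 bp of its summit, while the peak at 34255713 in Brd2 had one 470 bp from its summit. The intergenic peaks past H2-DMb1 are shown for this reason, on the plus strand at chr17:34312571-34312681 and chr17:34316600-34316700, with strict, class II and short X-boxes in capitals.
First intergenic peak: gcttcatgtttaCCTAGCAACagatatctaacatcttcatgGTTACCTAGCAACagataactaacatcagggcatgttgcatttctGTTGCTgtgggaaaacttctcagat
Second intergenic peak: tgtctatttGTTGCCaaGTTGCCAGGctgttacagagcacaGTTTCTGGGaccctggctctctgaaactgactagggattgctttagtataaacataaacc
In the first, the strict X-box covers 34312612 to 34312624, 32 bp from the summit, and 6.44% of all summits had one within 100 bp, against 0.253% of windows 1 kb to the right. It overlaps a class II X-box, CCTAGCAAC, that occurs again upstream at 34312583 to 34312591. The copies begin 33 bp apart, and the 14 bases from the first base of each onward, CCTAGCAACAGATA, are the same. The bases on both sides are also largely alike. The 2 class II X-boxes thus lie in copies of a longer repeated unit and are not separate matches. Within 100 bp of the summit this peak had 2 class II X-boxes, where 6.97% of all peaks had 2 or more, and 4 short X-boxes, where 7.31% had 3 or more. CCTAGCAAC itself was near the summit of 4.74% of peaks and in 0.176% of windows 1 kb to the right, and 0.202% of peaks had it more than once. The second intergenic peak had 2 class II X-boxes, the nearer at 26 bp from the summit, and 2 short X-boxes, but no strict X-box.

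Over the 8 peaks, a class II X-box was within 100 bp of the summit in 5, beside 37.4% of all peaks, and these 5 are all the peaks on chromosome 17. A short X-box was near 3 of the 8 summits, beside 60.9% of all peaks. In windows 1 kb to the right the shares were 11.7% for the class II X-box and 24.7% for the short X-box. A Y-box was near none of the 8, beside 3962 of all 23308 peaks and 23.0% of windows 1 kb to the right. A match describes the letters only, and the absence of one says nothing of the protein bound.

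The strict X-box was absent from the promoters of the 8 genes. Among 45962 starts of protein-coding transcripts, 1.4% had a strict X-box from 300 bp before to 50 bp after the start, and none of the 8 genes did. Of the starts that had one, 57.1% were within 1 kb of a summit, against 19.4% of the others. An X-box of the class II or short kind followed by a Y-box on the same strand, with 25 to 45 bp between their first bases, was found at 1.36% of starts. These were limits chosen after the promoters had been seen. H2-Aa, H2-Ab1 and H2-Eb1 had this arrangement. In H2-Ab1 the class II X-box was 63 bp before the start of H2-Ab1-001 and the spacing was 36 bp. Starts with this arrangement had a summit within 1 kb in 27.3% of cases, against 19.9% of the others. Several starts can belong to 1 gene, so these shares were not tested. For the exact letters CCTAGCAAC, present at 0.801% of starts, the share with a summit within 1 kb was 60.3%. In the genome, 5.52% of the 21083 sites with these letters lay within 100 bp of a summit.

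The remaining promoters had neither a strict X-box nor this arrangement. Ciita had relaxed X-boxes, among them 1 at 164 bp before the start of Ciita-204, where Y-boxes on the opposite strand lay 175 and 122 bp before it. Cd74 had a class II X-box 235 bp before the start of Cd74-202 and a Y-box on the opposite strand 204 bp before it, and a short X-box 33 bp after the start. H2-DMa had a relaxed X-box 77 bp before its start and no Y-box. H2-DMb1 had a class II X-box 21 bp after its start, short and relaxed X-boxes besides, and no Y-box. In all, a class II X-box was at 4 of the 8 genes (H2-Aa, H2-Ab1, H2-DMb1 and Cd74) beside 23.4% of starts, a relaxed X-box at 4 beside 38.5%, a short X-box at 4 beside 37.9%, and a Y-box at 6 beside 39.6% of starts. Genes with several starts have more chances of a match than a single start, so these shares are not like for like.

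The proteins that bind class II promoters are encoded by genes that were counted at the same distances, and no difference from the 8 genes was tested. For these genes and the lists below, all annotated entries and transcripts of the name were used, noncoding ones included. The shares of all protein-coding genes rest on protein-coding entries and transcripts only, so the counts are not like for like. Of 7 genes of the class II enhanceosome, 6 had a summit within 20 kb and 4 within 1 kb of a start, beside 55.2% and 22.6% of all protein-coding genes. Rfx5, the DNA-binding subunit, had one 2 bp from a start, with 43 reads and a fold of 7.06. Rfxap, its partner, had one at 362 bp with 81 reads and a fold of 7.53. The NF-Y subunits Nfyc and Nfya had summits at 40 and 615 bp, with 54 and 40 reads, and Nfyb had none within 20 kb. Rfxank and Creb1 had summits within 20 kb but not within 1 kb of a start.

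Of the 5 other class II genes listed, 3 had a summit within 20 kb (H2-DMb2, H2-Oa and H2-Ob) and only H2-Ob within 1 kb of a start. H2-Eb2 and the pseudogene H2-Ea-ps, which lie beside H2-Eb1, had none. Of 4 peptide-loading genes, Ifi30 and Lgmn had a summit within 20 kb, at 10.8 and 11.3 kb, and Ctss and Ctsl had none. In the class I pathway, 7 of 8 genes had a summit within 20 kb and 4 within 1 kb of a start. The peak of 110 reads and a fold of 11.3 in Tap1, a subunit of the peptide transporter, is counted for Tap1 and for Psmb9, whose starts it lay 515 and 553 bp from. Psmb8 had a summit at 143 bp (63 reads) and H2-D1, a class I heavy chain, at 170 bp (69 reads), whereas H2-K1 was 66.6 kb from one. Tapbp, which tethers the transporter to class I molecules, had a summit 123 bp past its end, 3295 bp from a start (75 reads), and Tap2 had 3 summits within 20 kb. Nlrc5, the class I counterpart of Ciita, had 3, of which the nearest to a start was 3006 bp away (70 reads). In this annotation Nlrc5 is a long noncoding RNA entry, and its starts are those of that entry. Of 6 genes of the interferon gamma pathway that leads to Ciita, Jak2 and Irf1 had a summit within 20 kb, and none had one within 1 kb of a start. Over these 30 genes, 20 had a summit within 20 kb and 9 within 1 kb of a start, beside 55.2% and 22.6% of all protein-coding genes. Nlrc5 and H2-Ea-ps are among the 30 but not among those protein-coding genes. Starts of noncoding transcripts could count for the 9 but not for the 22.6%. Neighbouring genes on chromosome 17 share peaks in these counts.

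At 1 read per position, 33949757 of 49443917 reads were left for 3HA-Rfx6 and 3567375 of 16911298 for the control. A missing peak therefore means that none was called at this depth and a p-value cutoff of 1e-05. The effect of the shallower control on the fold values was not tested.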

How the data were processed

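Anti-HA ChIP-seq was available for 3HA-Rfx6 transfected Min6b1 cells and for control cells, 1 library each, and 1 peak list was deposited. The submitters' processing notes name CASAVA 1.8.2, Bowtie, MACS 1.4.2 and mm9, and the Bowtie version is not given in the sources used here. Per the file headers, the authors' peak calling kept at most 1 read per position, took 234 bp as the fragment size and drew on local backgrounds over 1000 and 10000 bp. For each peak the deposited list gives the count of reads without normalization, the fold enrichment as a ratio to the expected background, a score (the p-value as its log10 multiplied by minus 10), and the FDR in percent. The control has no list of its own and was not analysed here.

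Summits (peak start plus summit offset minus 1) were placed on NCBIM37 and compared with GENCODE M1. Reads have exact Poisson and shares Wilson 95% intervals, which cover counting error only. The Wilson intervals treat genes as independent, although neighbouring genes share peaks. No test was made. The 8 genes and the lists were chosen with earlier results of these data known. All 8 genes are named, as are genes of fixed pathway lists with a summit within 20 kb, genes that overlap or start nearest to a counted summit, and, after their values were seen, a few list genes without a summit and genes that bound the empty stretch or lie in it. Patterns were searched in 200 bp around summits, in windows 1 kb to the right, and from 300 bp before to 50 bp after starts. Scripts ran in Python 3.11.15 (pandas 2.3.3, numpy 2.4.6, matplotlib 3.10.9, scipy 1.17.1). In simulated data, all 200 planted gene assignments and all 400 planted strict X-boxes were recovered. The X-boxes were built from the searched pattern itself, so this checks only that the search runs correctly. The other patterns were not planted. Alternatives were other distances, peak sets, ranking measures, patterns and windows.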

Additional observations from a re-analysis of the deposited data

How the results depend on the processing

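Of 29 alternatives, 15 moved no count by more than 1.5 times and 14 did. With 50 kb in place of 20 kb, 6 of the 8 genes had a summit (67.8% of all genes), and with 100 kb 7 had one (76.7%), B2m being the exception. With an FDR of at most 1%, 10 peaks remained, and 0 genes had a summit within 20 kb and 0 within 1 kb of a start. Among the 8 peaks the FDR rose with the score, from 1.98% for the weakest to 4.56% for the first Ciita peak. A low FDR therefore does not mark the stronger of these peaks. Within 5 kb of a start there were 2 genes, Ciita and H2-DMa, in place of 1 (31.1% of all genes), and with only the starts of the longest entry of each gene, added after the data had been seen, there were 0. The number of genes with an X-box in the promoter was 0 for the strict form and 4 each for the relaxed, class II and short forms, and 3 for an X-box followed by a Y-box, an alternative added after the data had been seen. The number of the 8 peaks with an X-box at the summit was 1 for the strict form, 5 for the relaxed, 5 for the class II and 3 for the short form. With a fold of at least 10, 2 genes remained, Ciita and H2-DMb1 (32.3% of all genes). When only summits whose nearest start was that of the gene counted, also added after the data had been seen, 2 remained, Ciita and H2-DMa. The nearest peak was among the top 10% of peaks by reads and by score for 1 gene, Ciita. By fold it was so for 1 gene, Cd74, when the peak with the most reads stood for the 3 summits tied in Ciita, and for 2, Ciita and Cd74, when the one with the highest fold did, an alternative added after the data had been seen. No paired analysis was possible because each condition has 1 library, and for the same reason no replicate could be left out. Depth limits the absences: the lowest peak called held 24 reads, and weaker binding near these genes would not be listed.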
